A study of Homo sapiens with 12 samples.

Results

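The report covers 10 genes of the AP-1 and C/EBP families of transcription factors in lung cancer cells in which the transcription factor NRF2 was lowered. The genes are FOS, FOSL1, FOSL2, JUN, JUNB, JUND, ATF3, CEBPB, CEBPD and CEBPG, which were taken by name from the 57815 genes of each file, and all 10 were found. RNA was sequenced from the human cell lines A549, H2023 and H460, all labelled as positive for a KEAP1 mutation, 48 h after the siRNA was transfected (control or NRF2), in 6 groups of 2 libraries. The labels give lung adenocarcinoma for A549 and for H2023, large cell carcinoma for H460, and A549 cells were grown in high glucose medium whereas the other lines were grown in low glucose. The control libraries of a group are biological duplicates, but those of an NRF2 siRNA group come from separate siRNAs, called 28 (library 0) and 30 (library 1), so their spread includes the difference between siRNAs. A549 RNA was depleted of ribosomal RNA and the other RNA was selected by polyA tail, so the method and the line cannot be told apart, and levels are not compared between A549 and the other lines. Each line is grown from a single tumor, which limits what it stands for.

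AP-1 is a dimer of basic leucine zipper proteins, formed by a JUN protein with a FOS protein or a relative such as ATF3, that binds the element TGAGTCA. JUN proteins also pair with themselves, whereas FOS proteins need a partner. C/EBP proteins are basic leucine zipper factors as well: CEBPB and CEBPD activate genes of inflammation and differentiation, and CEBPG lacks an activation domain and acts through its partners, among them ATF4. NRF2, encoded by NFE2L2 and restrained by KEAP1, belongs to the same superfamily, and with a small MAF protein it binds the antioxidant response element, whose core is TGACNNNGC. FOS, JUN, JUNB and ATF3 are immediate early or stress genes whose transcripts are short-lived. The study asked about CEBPB as a possible partner of NRF2 at enhancers.

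The stretches of genome directly upstream of a transcription start are shown for 3 members that passed a test below, CEBPB, CEBPG and JUNB, to show which of the searched elements lie next to them. They are RefSeq windows of 250 bases before and 50 bases after a start, located in GRCh37 by exact match, and the 130 bases before the start are printed 5′ to 3′ on the strand of the gene, with matches to the searched elements in capitals. CEBPB is shown at chr20:48807237-48807366, CEBPG at chr19:33864889-33865018 and JUNB at chr19:12902170-12902299, all on the plus strand. The CEBPG start lies within the annotated gene, and the stretch before it holds no annotated exon.
CEBPB: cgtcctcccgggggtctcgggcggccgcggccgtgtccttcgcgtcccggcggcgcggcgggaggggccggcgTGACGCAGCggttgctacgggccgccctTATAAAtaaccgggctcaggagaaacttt
CEBPG: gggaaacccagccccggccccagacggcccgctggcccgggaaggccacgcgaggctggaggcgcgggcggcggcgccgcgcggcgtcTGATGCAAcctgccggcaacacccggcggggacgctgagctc
JUNB: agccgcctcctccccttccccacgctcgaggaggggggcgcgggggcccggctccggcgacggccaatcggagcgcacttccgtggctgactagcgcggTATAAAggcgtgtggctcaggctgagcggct
The CEBPB stretch held TGACGCAGC, a match to TGACNNNGC that began 57 bases before the start, and TATAAA, which began 29 bases before it. In CEBPG the match was TGATGCAA, 42 bases before the start, of the form TGATGNAA that ATF4 with a C/EBP partner can bind. JUNB held TATAAA 31 bases before its start. The FOSL2 window had TGACTCA, the reverse complement of TGAGTCA, at positions 5 to 11 counted from 1 at its start, and no other match.

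The search covered TGAGTCA, the AP-1 site, and also TGACNNNGC, TGACGTCA, TTGCGCAA, TTGCNNAA, and TGATGNAA on both strands, and beside these the TATA element TATAAA and the CArG box. TTGCNNAA takes in TTGCGCAA, so matches to the latter count for both, and TGACGTCA and TGACNNNGC share their first bases and can overlap. Of all 35116 windows of 300 bases, 13.3% held TGACNNNGC, 4.95% TGAGTCA, 1.85% TGACGTCA, 0.151% TTGCGCAA, 10.5% TTGCNNAA, 3.62% TGATGNAA, 11.5% TATAAA and 1.29% the CArG box. The other window of CEBPB and that of CEBPG, each at a start further upstream, held no match. There were 11 windows for 8 of the 10 members, and FOSL1 and CEBPD were not searched. Beyond the stretches shown, JUND had TGACNNNGC matches 230 and 90 bases before its start and TGACGTCA 200 bases before it, FOS had TATAAA 33 bases before its start, 1 of the ATF3 windows had TGATGGAA 191 bases before its start, and the other had TATAAA 230 bases before its start and a match to TTGCNNAA across the start. JUN held no match in its window. A match describes letters and not binding.

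The deposited values are FPKM, fragments scaled to transcript length and to the mapped total, a level per length. Relative depth within a line, read from the steps between low values, was 92.3% to 107% of the first control library, and 12732 to 13909 genes reached 1 FPKM in each library. The targeted gene NFE2L2 was between 30.9 and 144 FPKM in the 6 control libraries and between 5.31 and 12.2 FPKM in the 6 NRF2 siRNA libraries, with no overlap in any line. Mitochondrial transcripts made up 0.892% to 1.56% of summed FPKM in A549, 11.97% and 18.1% in H2023 control and 17.3% and 22.8% in H2023 NRF2 siRNA libraries, and 8.56% and 13.1% in H460 control and 20.8% and 26.0% in H460 NRF2 siRNA libraries. The epithelial keratins KRT8 and KRT18 were at 298 FPKM or more in every library, but EPCAM and CDH1 were at most 1.19 FPKM in H460, KRT19 was as low as 7.28 FPKM in A549, and of the lung lineage genes NKX2-1, SFTPB and SFTPC were at most 0.353 FPKM and NAPSA at most 1.25 FPKM in all lines. The 3 leukocyte markers summed to 1.79 and 5.51 FPKM in H460 control and 17.6 and 19.4 FPKM in H460 NRF2 siRNA libraries, and to 0.628 and 0.523 FPKM and then 2.68 and 1.84 FPKM in A549, with CD14 up to 19.4 FPKM in H460 and PTPRC and CD3E at most 0.0146 and 0.0267 FPKM there. The 3 fibroblast markers summed to 6.004 and 6.66 FPKM in H460 control and 12.5 and 18.3 FPKM in H460 NRF2 siRNA libraries, and the 5 epithelial markers to 2547 and 2129 FPKM in H2023 control and 5273 and 4624 FPKM in H2023 NRF2 siRNA libraries, and to 1142 and 1335 FPKM and then 1743 and 2606 FPKM in H460. The part of these markers in the results below was not tested.

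The first question was how these factors differed between control and NRF2 siRNA in each line. CEBPB fell in all 3 lines, to 0.319 of its control mean in A549, 0.323 in H2023 and 0.357 in H460, and was the only member that passed the test in A549 and H2023. In H460, FOSL1 fell as well and JUNB rose. The remaining 7 members, FOS, FOSL2, JUN, JUND, ATF3, CEBPD and CEBPG, passed in no line when the lines were tested singly, although FOSL2, JUN, ATF3 and CEBPG passed in some alternatives given with each. Fold changes are differences of log2(FPKM + 1), tested with limma over all genes of the line and adjusted by Benjamini-Hochberg, with a threshold of 0.05.

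**Figure D1:**
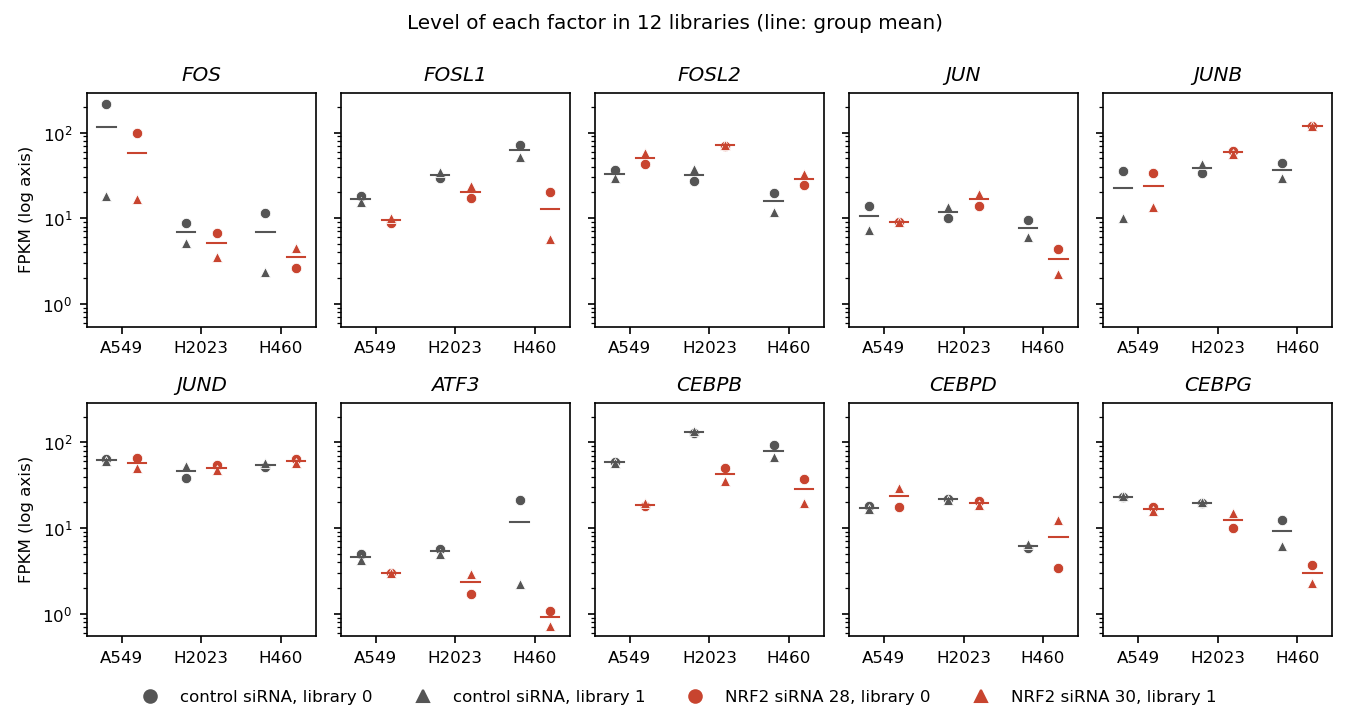
FPKM of each factor (log axis) in the 12 libraries, by cell line, with control siRNA in grey and NRF2 siRNA in red, circles for library 0, triangles for library 1 and a line at the group mean. CEBPB is lower in both NRF2 siRNA libraries than in both control libraries of every line, whereas FOS in A549 differs more between libraries (216 and 18.0 FPKM with control siRNA) than between groups.

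Among all genes tested, 0.554% were lower and 0.122% higher in A549, 0.583% lower and 0.327% higher in H2023, and 6.86% lower and 7.12% higher in H460. These counts rested on single libraries too, since 0 genes passed without control library 0 of H2023 or of H460. Against this background, 1 of 10 members was lower and 0 higher in A549, 1 lower and 0 higher in H2023, and 2 lower and 1 higher in H460. At an unadjusted p under 0.05, 5, 6 and 7 of the 10 differed in A549, H2023 and H460, against 1844 of 13898, 2378 of 14059 and 4538 of 13446 genes. The members had a median log2 fold change of -0.29 (A549), -0.26 (H2023) and -0.79 (H460), and all genes tested had 0.02, 0.02 and -0.01. The split of all calls in H460 changed from 922 lower and 957 higher to 580 lower and 1426 higher when mitochondrial transcripts were left out, and the median of all genes moved to 0.19. Both calls of a fall and the call of a rise among the members in H460 were still made then, with log2 fold changes of -1.30 for CEBPB, -2.20 for FOSL1 and 1.91 for JUNB.

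A looser description counts members whose NRF2 siRNA libraries both lay outside both control libraries. In A549 these were 4 lower members (FOSL1, ATF3, CEBPB and CEBPG) and 1 higher (FOSL2), where 20.5% of all genes were lower and 25.2% higher in this sense. In H2023, 5 were lower, the same 4 with CEBPD, and 3 higher (FOSL2, JUN and JUNB), against 22.0% and 27.0% of all genes. In H460, 5 were lower, the 4 with JUN, and 3 higher (FOSL2, JUNB and JUND), against 31.6% and 31.1%. FOSL1, ATF3, CEBPB and CEBPG were thus lower and FOSL2 higher, without overlap, in every line, which is 4 of 10 and 1 of 10 members where 7.20% and 8.18% of 11571 genes were so. JUN was on opposite sides in H2023 and H460, a pattern whose share over all genes was not counted.

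**Figure D2:**
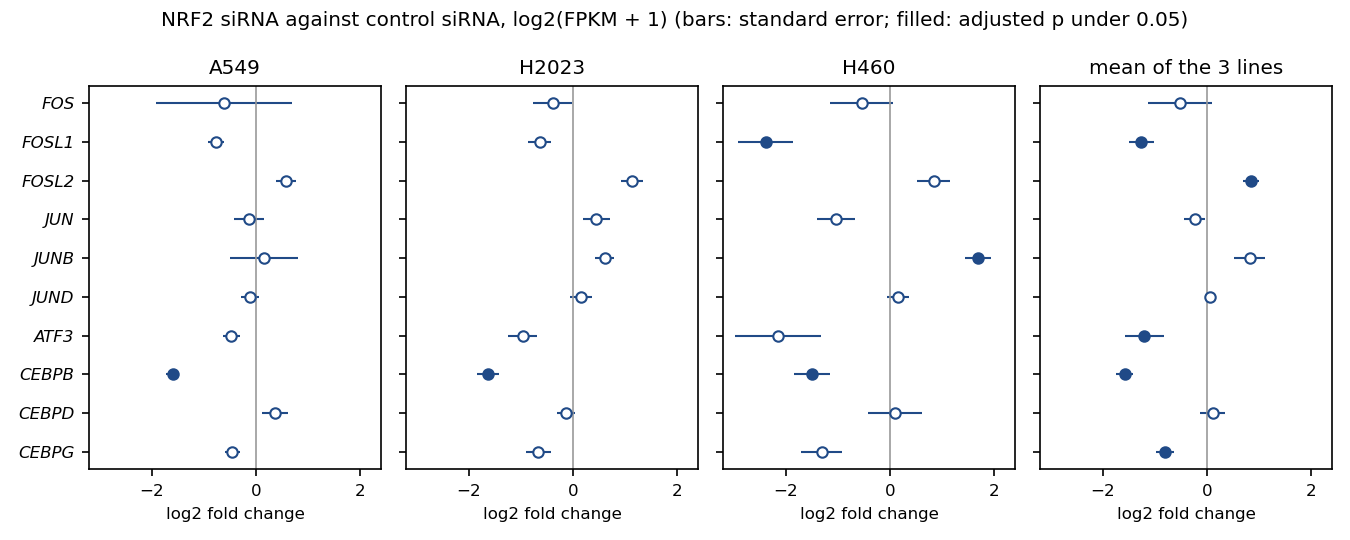
Log2 fold change (NRF2 siRNA over control siRNA, on the log2(FPKM + 1) scale) of each factor in each line and as the mean of the 3 lines, with bars for the standard error and filled points for an adjusted p under 0.05. CEBPB is filled in every panel at values between -1.63 and -1.50, and JUNB runs from 0.16 in A549 to 1.69 in H460.

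CEBPB (ENSG00000172216.4, chromosome 20, 48807367 to 48809205, plus strand, 1 exon, GRCh37) encodes an activator of inflammatory and stress genes and is the gene whose upstream stretch holds TGACGCAGC. In A549 it was at 59.5 and 58.2 FPKM with control siRNA and at 18.1 and 19.4 FPKM with NRF2 siRNA. In H2023 the control libraries were at 128 and 136 FPKM and the NRF2 siRNA libraries at 49.9 and 35.3 FPKM. In H460 they were at 92.7 and 67.0 FPKM and at 37.3 and 19.7 FPKM. No NRF2 siRNA library reached any control library of its line, and the control mean was 3.14 times the NRF2 siRNA mean in A549, 3.101 times in H2023 and 2.80 times in H460. On the log2 scale A549 gave a fold change of -1.60 ± 0.13 (SE, adjusted p = 0.00946). H2023 gave -1.63 ± 0.21 (adjusted p = 0.0474), and H460 gave -1.50 ± 0.35 (adjusted p = 0.0397). In bulk RNA, fewer expressing cells and less RNA per cell cannot be told apart. The antisense gene CEBPB-AS1 overlaps CEBPB. The study's methods name a strand-specific library kit, but whether strand was used in counting is not given in the sources used here. Part of the reads may therefore belong to CEBPB-AS1.

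The CEBPB calls in single lines rested on both control libraries. With only control library 1 kept the adjusted p became 0.0890 (A549), 0.294 (H2023) and 0.249 (H460), and with only control library 0 kept it was 0.0596, 0.307 and 0.147, although the log2 fold change stayed between -1.73 and -1.27. The H2023 call was close to the threshold and was also lost in 4 other alternatives, with adjusted p between 0.0528 and 0.437. With no filter on low values the H460 calls were lost as well, with adjusted p of 0.559 for CEBPB, 0.592 for FOSL1 and 0.305 for JUNB.

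FOSL1 (ENSG00000175592.4, chromosome 11, 65659520 to 65668044, minus strand, 4 exons) encodes FRA-1, a FOS protein without a transactivation domain of its own that is often abundant in invasive carcinoma cells. It was at 71.4 and 52.4 FPKM in H460 control libraries and at 20.2 and 5.71 FPKM with siRNA 28 and siRNA 30. The log2 fold change in H460 was -2.38 ± 0.52 (SE, adjusted p = 0.0360), with -1.56 for siRNA 28 and -3.21 for siRNA 30 against the control mean. In A549 the control libraries were at 18.4 and 15.3 FPKM and the NRF2 siRNA libraries at 8.90 and 10.0 FPKM, and in H2023 the values were 29.5 and 34.3 FPKM and 17.1 and 23.8 FPKM. These groups did not overlap either, but neither line passed (log2 fold change -0.77, adjusted p = 0.162, and -0.63, adjusted p = 0.253). In H2023 FOSL1 passed without NRF2 siRNA library 1 (adjusted p = 0.0235). The H460 call was not made without control library 0 (adjusted p = 0.216) or control library 1 (adjusted p = 0.142).

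FOSL2 (ENSG00000075426.7, chromosome 2, 28615315 to 28640184, plus strand, 4 exons) encodes FRA-2, the nearest relative of FRA-1. It went the other way from FOSL1. A549 control libraries had 36.4 and 29.8 FPKM against 42.6 and 57.4 FPKM after NRF2 siRNA. H2023 control libraries had 26.9 and 37.5 FPKM against 69.7 and 72.04 FPKM. For H460 the pairs were 19.9 and 11.7 FPKM against 24.2 and 32.7 FPKM. All 6 NRF2 siRNA libraries were above both control libraries of their line, by 0.57, 1.13 and 0.84 on the log2 scale, with adjusted p of 0.316, 0.0989 and 0.124. In H2023 FOSL2 passed without NRF2 siRNA library 0 (adjusted p = 0.0115) or library 1 (adjusted p = 0.0158), and in 1 fit of all 12 libraries it passed in H2023 (adjusted p = 0.0470) and H460 (adjusted p = 0.0372). The antisense gene FOSL2-AS1 and another long noncoding gene overlap FOSL2.

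FOS (ENSG00000170345.5, chromosome 14, 75745529 to 75748933, plus strand, 4 exons), the founding member of its family, did not separate by siRNA. In A549 its control libraries were at 216 and 18.0 FPKM and its NRF2 siRNA libraries at 98.5 and 16.6 FPKM. H2023 libraries had 8.77 and 5.18 FPKM against 6.74 and 3.54 FPKM, and H460 libraries had 11.5 and 2.38 FPKM against 2.63 and 4.45 FPKM. The groups overlapped in each line, and the adjusted p was 0.883, 0.645 and 0.575.

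The balance within the FOS family is also given as ratios within a library, which no scaling of a whole library can change. With FOSL1 lower and FOSL2 higher without overlap in every line, a lower ratio follows and adds no further support. FOSL1 over FOSL2 was 0.505 and 0.513 in A549 control libraries and 0.209 and 0.175 in the NRF2 siRNA libraries. In H2023 the ratio was 1.10 and 0.914 with control siRNA and 0.245 and 0.330 with NRF2 siRNA, and in H460 it was 3.59 and 4.48 and then 0.834 and 0.175. The ratio was lower in both NRF2 siRNA libraries of each line, and in H2023 and H460 FOSL2 made up 17.6% to 48.7% of the summed FPKM of FOS, FOSL1 and FOSL2 in control libraries and 51.5% to 76.3% in NRF2 siRNA libraries. In A549 the shares of FOSL2 were 13.4% and 47.3% with control siRNA and 28.4% and 68.3% with NRF2 siRNA and overlapped, since FOS was 79.8% and 65.7% of the sum in both libraries numbered 0. Ratios and shares are given without a test.

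**Figure D3:**
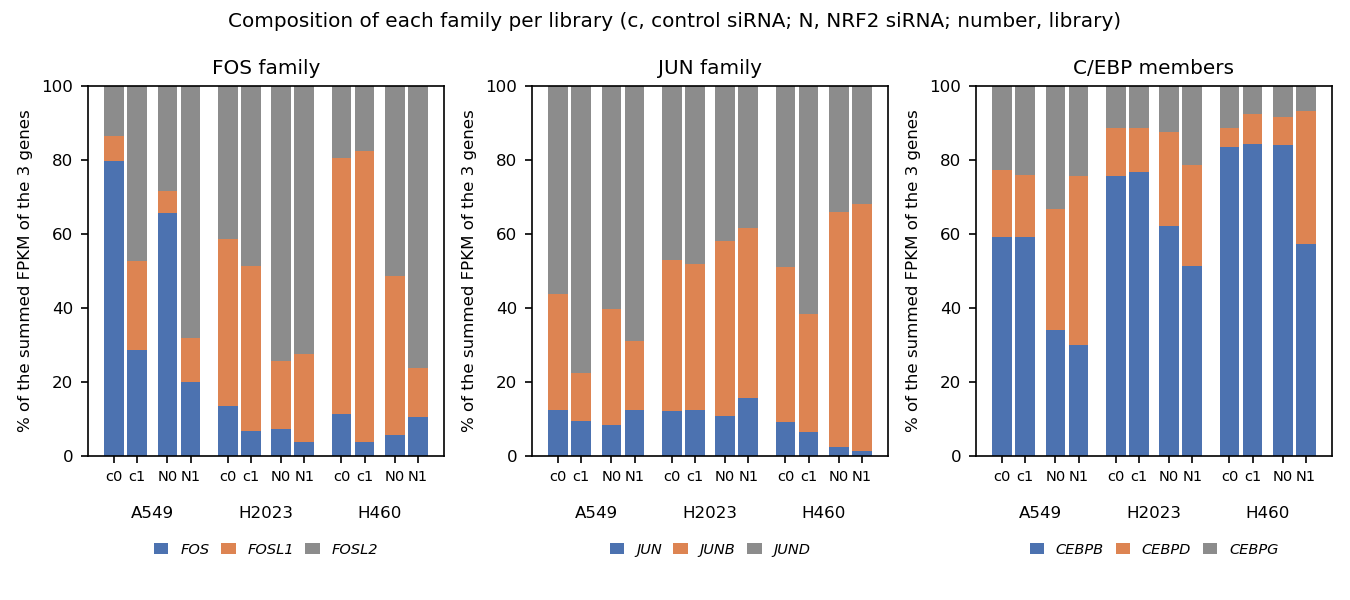
Percent of the summed FPKM of 3 genes that each gene took in each library, for the FOS family, the JUN family and the C/EBP members (c, control siRNA; N, NRF2 siRNA; the number is the library). FOSL1 takes a smaller and FOSL2 a larger share with NRF2 siRNA in H2023 and H460, JUNB is 63.5% and 66.7% of the JUN family in H460 NRF2 siRNA libraries, and CEBPB is 59.2% and 59.1% of the C/EBP sum in A549 control libraries and 33.9% and 30.05% with NRF2 siRNA.

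JUNB (ENSG00000171223.4, chromosome 19, 12902300 to 12904129, plus strand, 1 exon), an immediate early JUN protein that can hold back JUN, rose in H460. Its H460 libraries were at 44.1 and 29.8 FPKM with control siRNA and at 119 and 120.0 FPKM with NRF2 siRNA, so that the log2 fold change came to 1.69 ± 0.25 (SE, adjusted p = 0.0191). Both siRNAs gave about the same value there, 1.69 for siRNA 28 and 1.70 for siRNA 30. In H2023 JUNB was at 33.5 and 43.2 FPKM and then 60.8 and 56.6 FPKM, without overlap but with an adjusted p of 0.210. In A549 it was at 35.4 and 10.2 FPKM and then 33.8 and 13.5 FPKM, with both libraries numbered 0 above both numbered 1 (adjusted p = 0.945). Without control library 0 or 1 of H460 the adjusted p was 0.121 or 0.136, and HOOK2 overlaps JUNB on the other strand.

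JUN (ENSG00000177606.5, chromosome 1, 59242517 to 59249720, minus strand, 1 exon), the main dimer partner of FOS proteins, was at 13.8 and 7.22 FPKM in A549 control and at 9.0003 and 9.07 FPKM in A549 NRF2 siRNA libraries. H2023 libraries had 9.94 and 13.69 FPKM against 13.74 and 19.4 FPKM, so that the groups were only just apart, and H460 libraries had 9.54 and 5.99 FPKM against 4.43 and 2.25 FPKM. The log2 fold change of 0.45 in H2023 and of -1.03 in H460 had adjusted p of 0.446 and 0.107, and in 1 fit of all 12 libraries JUN passed in H460 (adjusted p = 0.0429), as it did without NRF2 siRNA library 0 (adjusted p = 0.0310). JUNB over JUN was 4.62 and 4.98 in H460 control libraries and 26.8 and 53.4 in H460 NRF2 siRNA libraries. That rise follows from the higher JUNB and lower JUN there and adds no further support. In the other lines this ratio overlapped between the groups, at 1.41 to 3.76 in A549 and 2.92 to 4.42 in H2023.

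JUND (ENSG00000130522.4, chromosome 19, 18390504 to 18392432, minus strand, 1 exon) is a JUN protein that most cells express steadily. Its libraries lay between 50.3 and 65.0 FPKM in A549, 38.8 and 53.9 FPKM in H2023, and 51.7 and 63.7 FPKM in H460. Log2 fold changes were -0.11 ± 0.17 in A549, 0.16 ± 0.21 in H2023 and 0.15 ± 0.21 in H460 (SE), with adjusted p of 0.822, 0.759 and 0.657.

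ATF3 (ENSG00000162772.12, chromosome 1, 212738676 to 212794119, plus strand, 4 exons) is a stress-induced relative that pairs with JUN proteins and C/EBP proteins. It was the lowest member in every group but H460 control. A549 control libraries were at 4.999 and 4.24 FPKM and NRF2 siRNA libraries at 3.03 and 3.04 FPKM, and in H2023 the values were 5.71 and 5.05 FPKM and then 1.69 and 2.95 FPKM. In H460 the control libraries were at 21.3 and 2.21 FPKM, and the NRF2 siRNA libraries at 1.09 and 0.725 FPKM. All groups were separate, but the adjusted p was 0.314, 0.186 and 0.125, and the H460 log2 fold change of -2.16 was -0.76 without control library 0 and -3.55 without control library 1. In 1 fit of all 12 libraries ATF3 passed in H460 (adjusted p = 0.0282), and without NRF2 siRNA library 1 it passed in H2023 (adjusted p = 0.0221).

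CEBPG (ENSG00000153879.4, chromosome 19, 33864591 to 33873592, plus strand, 2 exons), whose upstream stretch holds TGATGCAA, was at 22.8 and 23.7 FPKM in A549 control libraries and 17.8 and 15.8 FPKM with NRF2 siRNA. H2023 libraries had 19.5 and 20.1 FPKM against 9.92 and 14.8 FPKM, and H460 libraries 12.5 and 6.12 FPKM against 3.73 and 2.31 FPKM. Every NRF2 siRNA library was below both control libraries of its line, and the log2 fold changes of -0.45, -0.66 and -1.31 had adjusted p of 0.282, 0.261 and 0.0706. In 1 fit of all 12 libraries CEBPG passed in H460 (adjusted p = 0.00833). It also passed there without NRF2 siRNA library 0 (adjusted p = 0.0381) and in H2023 without NRF2 siRNA library 1 (adjusted p = 0.0194).

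CEBPD (ENSG00000221869.4, chromosome 8, minus strand, 1 exon), an inducible activator of acute-phase genes, was at 18.1 and 16.6 FPKM and then 17.6 and 29.4 FPKM in A549, at 21.9 and 21.3 FPKM and then 20.6 and 18.8 FPKM in H2023, and at 5.86 and 6.45 FPKM and then 3.395 and 12.3 FPKM in H460. The groups overlapped in A549 and H460, and log2 fold changes were between -0.13 and 0.37. In A549 and H2023 CEBPB took a smaller share of the C/EBP sum with NRF2 siRNA. It was 59.2% and 59.1% of the summed FPKM of CEBPB, CEBPD and CEBPG in A549 control libraries and 33.9% and 30.05% with NRF2 siRNA, and 75.6% and 76.6% and then 62.1% and 51.2% in H2023. In H460 the shares were 83.5% and 84.2% and then 84.0% and 57.4% and overlapped.

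In control cells CEBPB was the highest member in H2023 and H460, and all H2023 control values of CEBPB were above those of any other member. JUND, JUNB, FOSL2 and FOSL1 followed in H2023 with overlapping libraries, between 26.9 and 52.9 FPKM. In H460 control libraries FOSL1 and JUND overlapped with each other, and FOSL1 overlapped with CEBPB in value. In A549 control libraries JUND and CEBPB were between 58.2 and 63.3 FPKM, and FOS, first by its mean of 117 FPKM, had a library at 18.0 FPKM. With NRF2 siRNA the order by mean began with JUND in A549, FOSL2 in H2023 and JUNB in H460, and CEBPB ranked 6, 4 and 3 of 10.

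The average of the 3 within-line effects, fitted in all 12 libraries, asks which members differed in the mean over the lines, which a single line can carry. CEBPB, FOSL1, CEBPG and ATF3 were lower and FOSL2 was higher on average. That is 4 of 10 lower and 1 of 10 higher, where 14.5% of 11571 genes were lower and 15.2% higher. The average log2 fold change was -1.58 ± 0.16 for CEBPB (SE, adjusted p = 0.000152), -1.26 ± 0.24 for FOSL1 (adjusted p = 0.00415), -0.81 ± 0.17 for CEBPG (adjusted p = 0.00701), -1.20 ± 0.38 for ATF3 (adjusted p = 0.0363) and 0.85 ± 0.16 for FOSL2 (adjusted p = 0.00340). JUNB had 0.82 ± 0.29 and an adjusted p of 0.0574, and the other 4 members had adjusted p between 0.399 and 0.751. The calls of CEBPB, FOSL1, CEBPG and FOSL2 were made without any 1 of the 12 libraries, but with no filter on low values FOSL1 and CEBPG had adjusted p of 0.0615 and 0.0684 and ATF3 had 0.263. ATF3 was called in 4 of these 12 fits, with adjusted p up to 0.0847 without A549 control library 0 (and 0.0515 with genes at 1 FPKM in any 2 of the 12 libraries) and an average log2 fold change of -0.73 to -1.67. JUNB passed without A549 control library 0 (adjusted p = 0.0109) or A549 NRF2 siRNA library 1 (adjusted p = 0.0284). With mitochondrial transcripts left out, all calls in this test changed from 1674 lower and 1763 higher genes to 1120 lower and 2385 higher, and JUNB passed with an adjusted p of 0.0373.

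Whether the effect of NRF2 siRNA differed between lines was tested in the same fit. None of the 10 members passed, where 2.51% of genes did (290 genes, and 3 to 770 with 1 library left out). The smallest adjusted p were 0.169 for FOSL1 and 0.201 for JUN, with unadjusted p of 0.0255 and 0.0367. FOSL1 had a log2 fold change 1.75 ± 0.60 higher in H2023 than in H460 (SE, adjusted p = 0.120), so the larger fall of FOSL1 and rise of JUNB in H460 are not shown to differ from the other lines. For JUNB the difference between H2023 and H460 was -1.08 ± 0.72 (adjusted p = 0.398). FOSL1 passed the test of a difference without H460 NRF2 siRNA library 0 (adjusted p = 0.0124), and ATF3 without H460 control library 1 (adjusted p = 0.0263).

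The NRF2 siRNA arms rest on different siRNAs, so siRNA 28 was set against siRNA 30 over the 6 knockdown libraries, with the line as a covariate. As siRNA 28 was always library 0 and siRNA 30 library 1, the siRNA and the library number cannot be told apart here. None of the 10 members passed, and 0% of 15716 genes did, but 350 genes passed in the fit of all 12 libraries, and 89 and 93 genes passed without A549 NRF2 siRNA library 0 and library 1. At an unadjusted p under 0.05 there were 2853 genes and 0 members, the smallest adjusted p being 0.123. The members nearest to a difference were CEBPD, at -0.73 ± 0.32 on the log2 scale (siRNA 28 minus siRNA 30, SE, limma adjusted p = 0.313), FOSL2 at -0.30 ± 0.14 and CEBPB at 0.43 ± 0.21. In each line both siRNAs gave a lower CEBPB, FOSL1, ATF3 and CEBPG and a higher FOSL2 than the control mean. For CEBPB the values were -1.65 and -1.55 in A549, -1.39 and -1.87 in H2023 and -1.06 and -1.95 in H460 for siRNA 28 and siRNA 30.

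The spread of FOS and JUNB in A549 went with the library number in both arms. FOS was 3.52 higher on the log2 scale in control library 0 than in control library 1, and 2.496 higher in NRF2 siRNA library 0 than in library 1, and JUNB was 1.70 and 1.26 higher. Only these 2 of the 10 members were over 1 higher in library 0 in both arms, and 0.23% of 13898 genes were. Of 24 other immediate early genes in A549, 2 did so, EGR1 (2.14 and 1.89) and CCN2 (1.42 and 1.42), which are named after their values were seen. EGR1 is a growth-factor induced zinc finger factor and CCN2 a secreted matricellular protein. No member met this mark in H2023 or H460, where 0 of 25 and 2 of 26 other immediate early genes did, the latter being EGR1 (3.98 and 2.03) and IER3 (2.16 and 1.03) in H460. What the number stands for beyond the siRNA in the NRF2 siRNA arm is not given in the sources used here.

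**Figure D4:**
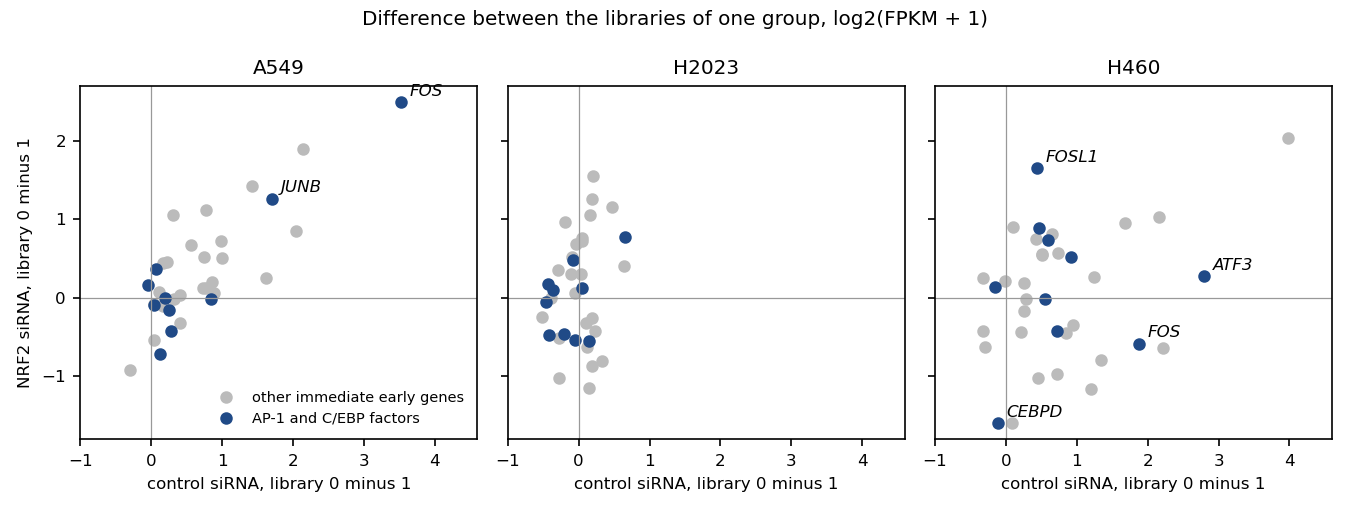
Difference between library 0 and library 1 within the control siRNA group (horizontal) and within the NRF2 siRNA group (vertical) of each line, on the log2(FPKM + 1) scale, for the 10 factors (blue) and 24 to 26 other immediate early genes (grey). FOS (3.52 and 2.496) and JUNB (1.70 and 1.26) lie at the upper right in A549, and in H460 ATF3 and FOS lie to the right, with differences of 2.80 and 1.88 between the control libraries.

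At baseline H2023 and H460, both made from polyA RNA, were compared in their 4 control libraries. CEBPD, CEBPG, FOSL2 and CEBPB were higher in H2023 and FOSL1 was higher in H460, so that 5 of 10 members passed where 48.8% of 14039 genes did. The log2 difference (H2023 minus H460) was 1.66 ± 0.16 for CEBPD (SE, adjusted p = 0.000809), 1.09 ± 0.31 for CEBPG (adjusted p = 0.0301), 1.01 ± 0.28 for FOSL2 (adjusted p = 0.0297), 0.74 ± 0.18 for CEBPB (adjusted p = 0.0189) and -0.92 ± 0.19 for FOSL1 (adjusted p = 0.00997). CEBPD was called in each of 4 fits that left out 1 library. Without H2023 control library 0 or 1 only 2 members passed, and 3223 or 3260 of all genes in place of 6857, and without H460 control library 0, 8 members passed.

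Other genes of these pathways were counted in each line from lists of genes. The counts depend on single libraries, since 75 of 168 of them moved by over 1.5 times when 1 library was left out. Of the other basic leucine zipper genes, 1 of 32 tested was lower in A549 and 2 of 31 in H2023. In H460, 3 of 29 were lower and 2 higher. Over all genes, 0.554%, 0.583% and 6.86% were lower in the 3 lines and 7.12% were higher in H460. In this list NFE2L2, the target of the siRNA, is among the lower ones in every line. MAFG, a small MAF partner of NRF2, fell in H2023 (log2 fold change -1.65, adjusted p = 0.04998, just under the threshold) and H460 (-1.58, adjusted p = 0.0332) and had -1.31 in A549 (adjusted p = 0.0662). In H460 BATF3, a partner of JUN proteins in dendritic cells, fell by 1.26 on the log2 scale (adjusted p = 0.0381). ATF6B, a membrane-bound factor of the endoplasmic reticulum, rose there by 1.14 (adjusted p = 0.0383). CREB3L1, another membrane-bound factor, rose in H460 by 3.70 from a mean of 0.119 FPKM to 14.7 FPKM (adjusted p = 0.0127). The filter on low values kept CREB3L1 only through its NRF2 siRNA libraries, so that call is not independent of the filter. Over the list the median log2 fold changes were -0.02, -0.10 and -0.27.

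The relatives ATF4, DDIT3, JDP2, FOSB and CEBPA did not pass where they were tested. ATF4, the main factor of the integrated stress response and a partner of CEBPG, came to -0.65, -0.60 and -1.22 on the log2 scale for A549, H2023 and H460 (adjusted p = 0.180, 0.171 and 0.0831). DDIT3, a C/EBP relative that blocks other C/EBP proteins, had -0.29, -0.50 and -1.61 (adjusted p = 0.477, 0.315 and 0.312). JDP2, a repressor that pairs with JUN, had -0.58, -0.29 and -0.75 (adjusted p = 0.326, 0.795 and 0.583). FOSB was tested in A549 alone, where its group means were 5.37 FPKM (control) and 3.203 FPKM (NRF2 siRNA) (adjusted p = 0.825). CEBPA was tested in H2023 alone, at a mean of 1.74 FPKM and then 0.0937 FPKM (adjusted p = 0.132).

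None of the kinases and regulators that act on AP-1 passed in any line, of 32 tested in A549, 34 in H2023 and 32 in H460, and their medians were 0.00075, -0.04 and -0.16. The smallest p belonged to MAP2K6, a p38 kinase kinase, at 0.76 in A549 (adjusted p = 0.377), ELK3, a ternary complex factor, at -0.89 in H2023 (adjusted p = 0.170) and MAPK9, which encodes JNK2, at -0.86 in H460 (adjusted p = 0.0703). At an unadjusted p under 0.05 there were 1, 4 and 2 of them in A549, H2023 and H460. Of all genes, 1844 of 13898, 2378 of 14059 and 4538 of 13446 were at that mark, a larger share in each line.

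Immediate early genes other than the members passed most often in H460, where all genes did as well, and the difference between lines was not tested for the list. There 2 of 26 fell and 6 rose, against 0 of 24 in A549 and 1 higher of 25 in H2023. Of all genes, 6.86% were lower and 7.12% higher in H460, 0.554% and 0.122% in A549, and 0.583% and 0.327% in H2023. The medians of the list were -0.06 in A549, 0.05 in H2023 and 0.47 in H460. In H460 MYC fell from a mean of 397 to 52.7 FPKM (log2 fold change -2.93, adjusted p = 0.0168), and DUSP5, a nuclear phosphatase of ERK, fell by 1.46 on the log2 scale (adjusted p = 0.0358). ZFP36L1, which destabilises mRNA, rose by 2.08 (adjusted p = 0.0127), DUSP6, the cytoplasmic phosphatase of ERK, by 2.58 (adjusted p = 0.0156) and IER2 by 1.68 (adjusted p = 0.0168). CCN1, a secreted matricellular protein, rose in H2023 by 3.18, from a mean of 10.6 to 104 FPKM (adjusted p = 0.0114). In A549, 6 of 24 had an unadjusted p under 0.05, against 1844 of 13898 genes. Of the list, PHLDA1 had the smallest p there, at 0.96 (adjusted p = 0.150).

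Of textbook AP-1 target genes 3 of 22 fell and 6 rose in H460, with a median of 0.41, where 6.86% of all genes were lower and 7.12% higher. A difference between the lines was not tested for this list. The urokinase system was among those that rose: PLAUR, the receptor, went from a mean of 18.0 to 89.0 FPKM (log2 fold change 2.25, adjusted p = 0.0120) and PLAU, the protease, from 3.02 to 17.8 FPKM (2.23, adjusted p = 0.0137). MMP1, an interstitial collagenase, went from 0.868 to 7.96 FPKM (2.24, adjusted p = 0.0168). HMGA1, an architectural chromatin protein, fell from 567 to 132 FPKM (-2.09, adjusted p = 0.0124). The study had picked HMGA1 with these libraries for a decrease after NRF2 siRNA, so its fall is not independent evidence. The cytokines IL6 and IL1A fell by 3.29 and 1.88 on the log2 scale (adjusted p = 0.0233 and 0.0485). IL1A was kept by the filter on low values only through its control libraries. In A549 and H2023 none of 22 and 25 passed by limma, and the medians were 0.33 and 0.41. At an unadjusted limma p under 0.05 there were 11 and 9, against 1844 of 13898 and 2378 of 14059 genes. In H2023 the smallest p belonged to CCL2, a chemokine, at 2.92 (adjusted p = 0.103).

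Of textbook C/EBP target genes 1 of 16 was lower in A549, 1 of 21 lower and 1 higher in H2023 and 3 of 9 lower in H460, where 0.554%, 0.583% and 6.86% of all genes were lower, and the medians were 0.38, 0.45 and -1.28. FTH1, the ferritin heavy chain and also a known NRF2 target, fell in A549 (-2.28, adjusted p = 0.0125) and H460 (-1.91, adjusted p = 0.0453) and had -1.71 in H2023 (adjusted p = 0.102). S100A8, a calcium-binding protein of myeloid cells, fell in H2023 from a mean of 4.73 to 0.252 FPKM (adjusted p = 0.0336). It was kept by the filter on low values only through its control libraries, so that call is not independent of the filter. C3, the central complement component, rose in H2023 from 456 to 1437 FPKM (1.64, adjusted p = 0.04998). In H460 CXCL1, a neutrophil chemokine, fell from 607 to 185 FPKM (-1.68, adjusted p = 0.0215), beside IL6, which is in both target lists. The medians are over different genes in each line, since the filter on low values kept 16, 21 and 9 of the 38 listed, and they are not compared.

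Of genes of the integrated stress response, to which ATF3 and CEBPG belong, 2 of 27 were lower in A549, where 0.554% of all genes were, and 6 of 27 were lower and 1 higher in H460, where 6.86% and 7.12% of all genes were. In H2023 none of 27 passed, and a difference between the lines was not tested for the list. The medians were -0.44, -0.26 and -1.01. SLC7A11, the cystine transporter and also a known NRF2 target, fell in A549 (log2 fold change -2.44, adjusted p = 0.0262) and H460 (-2.103, adjusted p = 0.0158) and had -2.25 in H2023 (adjusted p = 0.0950), and GDF15, a stress cytokine, fell by 1.53 in A549 (adjusted p = 0.0345). In H460 MTHFD2, a mitochondrial folate enzyme, fell by 2.42 (adjusted p = 0.0178) and SLC7A5, a large neutral amino acid carrier, by 1.84 (adjusted p = 0.0188), whereas CDKN1A, the cell cycle inhibitor p21, rose by 1.90 (adjusted p = 0.0314). In H2023, 9 of 27 had an unadjusted p under 0.05, against 2378 of 14059 genes. Of the list, CTH, an enzyme of cysteine synthesis, had the smallest p there, at -1.67 (adjusted p = 0.0886).

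Of 11 genes compiled here from those the study discusses beside these factors (NRF2 itself and KEAP1, known NRF2 targets, factors whose binding was compared with that of NRF2, and genes the study picked for their response), 4 of 9 were lower in A549, 3 of 11 in H2023 and 7 of 11 in H460, none was higher, and the medians were -1.30, -1.27 and -1.90. Over all genes, 0.554%, 0.583% and 6.86% were lower in A549, H2023 and H460. NOTCH3 and some others were picked by the study with these libraries, and NFE2L2 is the target of the siRNA. The count of the list is therefore not independent evidence of a direction. GCLM, a subunit of the glutathione synthesis enzyme, had log2 fold changes of -2.73, -3.13 and -4.01 (adjusted p = 0.00362, 0.00713 and 0.00448). NQO1, a quinone reductase, fell in A549 (-2.38, adjusted p = 0.00950), H2023 (-3.15, adjusted p = 0.00713) and H460 (-1.95, adjusted p = 0.0215). NOTCH3, a receptor of the Notch pathway, fell in A549 (-1.70, adjusted p = 0.0161) and H460 (-2.76, adjusted p = 0.0118) and had -2.13 in H2023 (adjusted p = 0.0695).

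Likeness in pattern was measured by Pearson r over the 12 libraries after the mean of each line was subtracted, among 11571 genes, and is a description, since all libraries share the contrast of control and NRF2 siRNA. CEBPB was most like PIP4K2A (r = 0.984), GCLC (0.983) and SQSTM1 (0.982), a lipid kinase, the catalytic subunit of glutathione synthesis and an autophagy receptor. ATF3 was nearest to DUS4L (0.978), ZFP69B (0.967) and DDIT3 (0.954), and CEBPG to ZFP69B (0.981), BOD1 (0.981) and MKRN2 (0.978). FOSL1 was nearest to NABP2 (0.982), TPRKB (0.982) and MCM2 (0.980), FOSL2 to P4HB (0.956), SOS1 (0.950) and TFPI2 (0.947), and JUN to GATAD2A (0.946), PITRM1 (0.932) and POLR2J (0.921). JUNB was nearest to IER2 (0.910), CSNK1D (0.907) and ARF5 (0.907). The values for FOS were lower, with IFT88 (0.902), ZNF410 (0.849) and the gene ENSG00000272373.1 (0.842), as were those for JUND, with JADE2 (0.867), PEX6 (0.837) and USP35 (0.832). CEBPD was nearest to RAP1B (0.934), BBX (0.933) and SEC31A (0.911). Among the members themselves the highest r were those of ATF3 with CEBPG (0.937) and FOSL1 with CEBPG (0.915), and the lowest was that of FOSL2 with CEBPB (-0.83). Within H460, ATF3 and CEBPG were both highest in control library 0 (21.3 and 12.5 FPKM). How far their r rest on that library was not tested.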

How the data were processed

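RNA was sequenced as 80-base paired-end reads from 12 libraries, 2 in each of 6 groups. Per the labels, the processing used bcl2fastq 2.15.0, cutadapt 1.15, STAR 2.5.3a, SAMtools, Cuffnorm, HTSeq, DESeq2 and R 3.2.0 with hg19, whereas the study's methods name TopHat and Cufflinks. The deposited values are FPKM made by the authors, so no counts were tested, and it is not given in the sources used here whether libraries were scaled together or strand was used. The authors' tables of fold changes and p-values were not used.

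Values under 1e-06 (12710 in all) were set to 0, and 96.1% of gene IDs had a symbol (GENCODE on GRCh37). Genes at 1 FPKM or more in at least 2 of the 4 libraries of a line were tested on log2(FPKM + 1) with limma 3.58.1 in R 4.3.3 (prior variance following mean expression, two-sided, Benjamini-Hochberg over all genes tested, threshold 0.05). Such a fit has 2 residual degrees of freedom and borrows its spread across genes. A fold change on this scale understates that of low genes. A gene under 1 FPKM in both libraries of 1 group was kept only through the other group. That favours a difference, and its adjusted p was not corrected for this. The 12-library fit used 6 group means. The scripts were tested on simulated data, where the share of false calls was above the threshold in the fits of single lines, in the test of a difference between lines and at baseline, so calls near the threshold there are less certain than their adjusted p. No library pair was identical. P-values measure the spread between these samples. Alternatives were another pseudocount (0.1), other filters, no variance trend, no mitochondrial transcripts, median centring, 1 fit of 12 libraries, line weights, a replicate block and each library left out.

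The named genes are the members, NFE2L2, up to 3 genes of the smallest p in each direction per list and line (or the smallest p where none passed), 5 relatives, and the 3 genes most like each member. In A549, 1 gene that this rule names is not reported here. The members and lists were chosen with earlier results of these data known. Promoter windows are from RefSeq (GRCh38.p14), matched to GRCh37 by exact sequence.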

Additional observations from a re-analysis of the deposited data

Results flagged for a closer look

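JUN was flagged because it went in opposite directions in the lines prepared from polyA RNA. The share of all genes with this pattern was not counted. Since 27.0% of genes were higher in H2023 and 31.6% lower in H460 without overlap, the pattern is not shown to be unusual. Each H2023 library with NRF2 siRNA was above its controls, each H460 library with NRF2 siRNA was below them, and the log2 fold change in H2023 minus that in H460 was 1.48 ± 0.49 (SE). In the test of this difference in the 12-library fit the adjusted p was 0.112, so the difference did not pass. The nearest H2023 libraries were at 13.74 FPKM with NRF2 siRNA and 13.69 FPKM with control siRNA.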

How the results depend on the processing

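The call of CEBPB in A549 and its average effect passed in all 8 alternatives other than leaving out a library. Members lower in H2023 went from 1 to 0 with a pseudocount of 0.1, no filter, a filter on a mean of 1 FPKM or no variance trend, and members higher went from 0 to 1 in 1 fit of 12 libraries. In H460 no filter gave 0 lower and 0 higher, and 1 fit of 12 libraries gave 5 lower and 2 higher. With no filter the average effect had 1 lower member, and without mitochondrial transcripts or with median centring it had 2 higher. The baseline difference between H2023 and H460 had 1 member with no filter and 3 in 1 fit of 12 libraries. The siRNA 28 minus siRNA 30 value of CEBPG turned to -0.0036 without mitochondrial transcripts. The cause was not tested.

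With 1 library left out, members lower ranged from 0 to 1 (A549), 0 to 4 (H2023) and 0 to 4 (H460), members higher from 0 to 1 in H2023 and 0 to 1 in H460, the average effect from 3 to 4 lower and 1 to 2 higher, members that differed between lines from 0 to 1, and baseline members from 2 to 8. Where a fit kept 1 library of an arm, that library was assumed to vary like the other group. Values that changed sign on the log2 scale in such fits were, in A549, FOS (-2.37 to 1.14), JUN (-0.56 to 0.29), JUNB (-0.70 to 1.01) and JUND (-0.29 to 0.0689). They were JUND in H2023 (-0.0633 to 0.37) and FOS (-1.49 to 0.40) and CEBPD (-0.70 to 0.89) in H460. Average effects that changed sign were those of FOS (-1.10 to 0.0699), CEBPD (-0.15 to 0.38) and JUND (-0.0079 to 0.14). Between siRNAs they were CEBPG (-0.19 to 0.34), ATF3 (-0.28 to 0.14), FOSL1 (-0.31 to 0.75) and JUN (-0.24 to 0.37), and at baseline FOS (-0.68 to 1.201), JUNB (-0.21 to 0.34) and ATF3 (-1.81 to 0.99). Of 460 member values in these fits 394 kept direction and side of the threshold, as did 500 of 530 in the other alternatives.

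The library numbers are not shown to pair the samples, since the correlation of deviations of same-numbered libraries over all genes came to -0.03 (A549), 0.31 (H2023) and 0.16 (H460), although it was 0.92 over the 10 members and 0.69 over the immediate early genes in A549. With the replicate block there was 1 member higher in H2023 (FOSL2, adjusted p = 0.0240), 5 lower in H460 (CEBPG with 0.0123, ATF3 with 0.00722 and JUN with 0.0331 beside CEBPB and FOSL1) and 2 with a higher average effect (JUNB with 0.00399 beside FOSL2). Over all genes the block gave 298 lower and 413 higher in H2023, 1530 and 1647 in H460 and 65 and 25 in A549, and 76 that differed between lines. With no filter there were 169 lower and 186 higher genes in A549, 71 and 151 in H2023 and 61 and 4 in H460, and 1 fit of 12 libraries gave 203 and 252 in H2023 and 2055 and 1795 in H460. The number that differed between lines was 876 with no filter and 91 with line weights, and the number at baseline was 1582 with no filter. With 1 library left out, genes lower and higher ranged from 24 to 193 and 17 to 132 (A549), 0 to 801 and 0 to 772 (H2023) and 0 to 1748 and 0 to 1380 (H460). List counts of lower and higher genes ranged, for H2023 and then H460, from 0 to 3 and 0 to 1 and from 0 to 5 and 0 to 2 for the kinases, from 0 to 7 and 0 to 1 and from 0 to 11 and 0 to 2 for the stress response genes, from 0 to 3 and 0 to 6 and from 0 to 3 and 0 to 7 for the AP-1 targets (0 to 2 higher in A549), and from 0 to 5 and 0 to 8 and from 0 to 4 and 0 to 1 for the C/EBP targets. Counting error could not be given because FPKM hold no counts.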
